A study of Mus musculus with 24 samples.

Results

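Mouse leukaemia cells that received both parts of the transcription factor subunit p65/RelA were compared with cells that received the C-terminal part alone. The comparison takes 8 of the 24 arrays of the series, chosen by the transfection named in the sample labels: 4 arrays with p65/RelA-p1-361+p363-549 and 4 arrays with p65/RelA-p363-549. The only named difference between these groups is the N-terminal part, residues 1 to 361, so the comparison asks which genes differ when that part is added to the C-terminal part. The name p363-549 gives the residues of the C-terminal part, while the treatment protocol has it begin at residue 362. All 8 samples are DA1-3B cells, a murine line that carries the Bcr-Abl oncogene, given as strain C3H eOuJ. The other groups of 4 arrays, used only where stated, received p65/RelA-p1-361, p65/RelA-WT, p65/RelA-D361E or a void plasmid (VOID). All groups share 1 line and a plasmid transfection, with the cells' own Rela still present as far as the labels say, and protein levels of the parts were not analysed here.

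p65 is the RelA subunit of NF-kB, a family of dimeric transcription factors held in the cytoplasm by inhibitors of the IkB family until a kinase complex marks those inhibitors for destruction. The N-terminal part of p65 holds the Rel homology domain, which binds DNA, other NF-kB subunits and IkB proteins, and the C-terminal part holds the transactivation domain. Known NF-kB targets include cytokines, chemokines, survival genes of the Bcl2 family and the pathway's own inhibitors.

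Levels are log2 of the processed signal minus the 75th percentile of the same array, so 0 is the 75th percentile of that array's spots. Differences are both fragments minus p363-549 on that log2 scale. A gene passed when its Benjamini-Hochberg adjusted p in limma was under 0.05 among 14993 genes tested. The 75th percentile of the signal was 1065, 1214, 847 and 1020 on the both-fragment arrays, against 697, 700, 636 and 736 on the p363-549 arrays. The both-fragment arrays were thus all brighter before scaling. Between 49.8% and 53.9% of spots were well above background on the 8 arrays, and 0 spots were saturated. Of the markers checked for a myeloid Bcr-Abl line, Spi1, Csf2rb, Abl1 and Bcr were well above background on 4 of 4 arrays of each group, while Kit did not pass the filter on dim probes. Separate cultures for the 4 samples of a group are not stated in the labels, and the spread behind each p-value may therefore be technical. In RNA from a whole culture, fewer cells of a type and less RNA per cell cannot be told apart. The number of arrays limits the precision.

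Rela itself did not pass. Its level was 4.94, 4.86, 4.79 and 4.81 on the both-fragment arrays, against 4.80, 4.86, 4.82 and 5.00 on the p363-549 arrays. The groups overlapped, with a difference of -0.02 ± 0.10 (SE, n = 4 each; limma adjusted p = 0.923). It is read by 1 probe, which begins at base 2648 of the transcript. The files do not say whether that base lies in a transfected part, so the probe does not check the labels. The start of this probe on build mm9, shown to place the measurement, is on the plus strand at chr19:5648070-5648099.
Rela probe: gaaaaagctattggactcttgctctttcta

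Before any gene is described, 2 arrays have to be set apart: the p363-549 array titled 23 and the both-fragment array titled 24, each replicate 4 of its group. Over the 1000 most variable genes, centred on the 8 arrays, the p363-549 array titled 23 correlated at 0.70, 0.53 and 0.31 with replicates 1, 2 and 3 of both fragments, and at -0.68, -0.63 and -0.74 with replicates 1, 2 and 3 of its own group. The both-fragment array titled 24 correlated at -0.26, -0.21 and -0.56 with replicates 1, 2 and 3 of its own group. These correlations are across genes, which are not independent replicates, and they share the centring. The labels were kept as given, and the reason why these arrays stand apart was not tested. Counts over all genes are therefore given with all 8 arrays and with the 6 others (3 of each group). Gene and list values are those of the 6 unless stated, with the value of all 8 arrays beside the main ones, and no gene passed with all 8. The 2 arrays were picked from earlier results of these data, so that choice lowers the spread in the comparison of 6. Leaving out arrays that lie away from their own groups can also enlarge the differences. The sizes given for the 6 arrays, as well as their p-values, share this limit.

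With all 8 arrays, 0 genes passed (0% of those tested), and the smallest adjusted p was 0.143. At an unadjusted p under 0.05 there were 2773 genes (18.5%), and the 4 arrays of each group did not overlap for 459 genes (3.06%). Without the arrays titled 23 and 24, 2188 genes passed (14.6%), of which 873 rose (5.82%) and 1315 fell (8.77%). Counts of members of the gene lists below are to be read beside these shares. The unadjusted p was under 0.05 for 4678 genes (31.2%), and the 3 arrays of each group did not overlap for 4311 genes (28.8%). The median size of the difference among the genes that passed was 0.80. More than 2-fold changes were found for 247 genes that rose and 528 that fell, and more than 8-fold changes for 9 that rose and 74 that fell. Of the 2188 genes, 2187 had the same sign with all 8 arrays, which share 6 arrays with that comparison. The median difference over all tested genes was -0.04 with all 8 arrays and -0.03 without the pair.

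The 2188 genes also show where each array lies between the groups, on a scale where 0 is the mean of p363-549 replicates 1 to 3 and 1 is the mean of replicates 1 to 3 of both fragments. The both-fragment array titled 24 had a median place of 0.49 and was nearer to the both-fragment mean for 49.1% of the genes. The p363-549 array titled 23 had a median of 0.84 and was nearer to the both-fragment mean for 83.3% of the genes. Replicate 3 of both fragments, which helped to set the scale, was at 0.76. The p1-361 arrays had medians of 0.16, 0.22, 0.11 and 0.36, and the VOID arrays 0.28, 0.37, 0.05 and 0.38, all nearer to p363-549 than to both fragments.

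**Figure D1:**
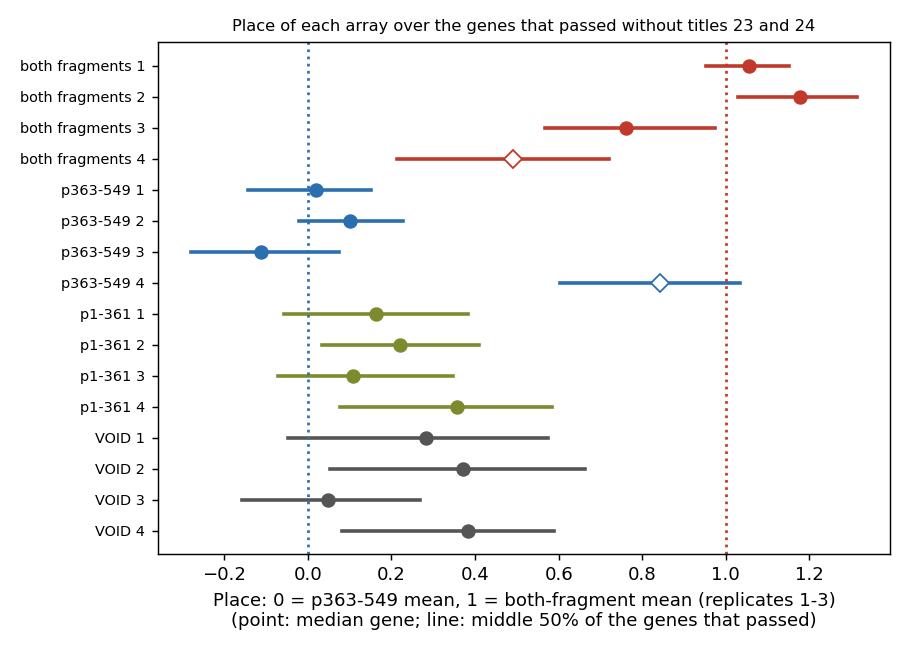
Place of 16 arrays (rows) between the p363-549 mean (0) and the both-fragment mean (1) over the 2188 genes that passed without the arrays titled 23 and 24; points are medians over genes, lines the middle 50%, and open diamonds those 2 arrays. The p363-549 array titled 23 lies at 0.84, among the both-fragment arrays, and the both-fragment array titled 24 at 0.49.

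Slides of 4 arrays held more than 1 group, and each slide that held both groups held 1 of the 2 arrays. Within slide 4 (both fragments replicate 1 minus p363-549 replicate 4) the median difference was -0.28 for the genes that fell and 0.12 for those that rose. Within slide 6 (both fragments replicate 4 minus p363-549 replicate 2) it was -0.34 and 0.25. The title numbers run in 4 sets of 6, each with 1 array per group. Within sets 1, 2 and 3 the medians were -0.87, -0.93 and -0.74 for the genes that fell, and 0.89, 0.77 and 0.68 for those that rose. Set 4, which holds the pair, had medians of 0.25 and -0.33, in the opposite direction. The first 3 sets are the arrays that chose these genes, so their direction is no separate evidence.

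The largest falls among the named genes were in the granzyme genes Gzmc and Gzmb. The granzyme genes Gzmk and Gzmm were also measured and are not among the named genes. Gzmc encodes a serine protease of lymphocyte granules. It had levels of -3.91, -3.59, -3.31 and 5.40 on the both-fragment arrays, against 4.90, 5.43, 5.97 and -3.34 on the p363-549 arrays. The first 3 arrays of each group were far apart and replicate 4 of each lay within the range of the other group's first 3 arrays. Gzmc fell by 9.04 ± 0.43, a 525-fold difference, without the pair (SE, n = 3 each; limma adjusted p = 8.82e-11), and was at -4.59 ± 1.71 with all arrays (SE, n = 4 each; limma adjusted p = 0.174).

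Gzmb, the granzyme that activates caspases in target cells, had levels of -2.89, -2.66, -2.69 and 5.23 with both fragments, against 4.93, 6.13, 6.48 and -2.70 with p363-549. It showed the same exchange of the replicate 4 arrays and fell by 8.59 ± 0.58 without the pair (limma adjusted p = 8.51e-09). Within slides the Gzmc difference was -0.57 and -0.03, and the Gzmb difference -0.19 and -0.90. The p1-361 and VOID arrays averaged 5.37 ± 0.46 and 3.06 ± 0.80 for Gzmc (SD, n = 4 each).

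The starts of the probes of 4 genes whose levels are followed closely are shown to identify what was read, all on build mm9. They lie at chr14:56850337-56850366 (minus strand) for Gzmc, chr14:56877946-56877975 (minus) for Gzmb, chr3:20115704-20115733 (minus) for Cpa3 and chr3:142236032-142236061 (plus) for Gbp3. The probes begin at bases 805, 1135, 1234 and 2494 of their transcripts in the same order. Among the granzyme, globin, Gbp and Cd200r families, the probes of Cd200r3 and Cd200r4 shared the most bases, 41 of 60.
Gzmc probe: gatgaaacacagctaactacaagaagcaaa
Gzmb probe: ccccgagaatgttatctaatgctagtcatc
Cpa3 probe: gccaagtatatcctcaagaatacttcctaa
Gbp3 probe: cacattggcatatgtatcccagttgtacac

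Next in size among the falls were a receptor and a mast cell protease. Il2ra, the alpha chain of the interleukin-2 receptor, had levels of -4.92, -4.91, -3.99 and 0.84 with both fragments, against 2.14, 2.11, 0.98 and -3.50 with p363-549. The gene fell by 6.35 ± 0.58 without the pair (limma adjusted p = 4.6e-07). That its first 3 arrays did not overlap was a condition for being named among the largest falls. It was at -3.68 with all arrays and -4.24 with normexp. Ryk, a receptor of Wnt ligands, was above background on 0 of the first 3 both-fragment arrays and was at least 19.5-fold lower (limma adjusted p = 8.24e-09). Such a bound is taken against the dimmest probe well above background on each array. It holds for the main scaling only, since Ryk was at -2.60 with normexp. F13a1, a subunit of a clotting factor, was at least 19.3-fold lower by 1 probe, while its other probe was at -0.56 (limma adjusted p = 0.132). With normexp the first F13a1 probe was at -2.08. The acute-phase gene Saa3 fell by 5.55, the lectin gene Itln1 by 5.49 (its 3 probes gave -5.49, -5.39 and -6.05) and the slow skeletal troponin gene Tnni1 at least 8.42-fold. Tnni1 was at -1.27 with normexp and lost its call (limma adjusted p = 0.17).

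**Figure D2:**
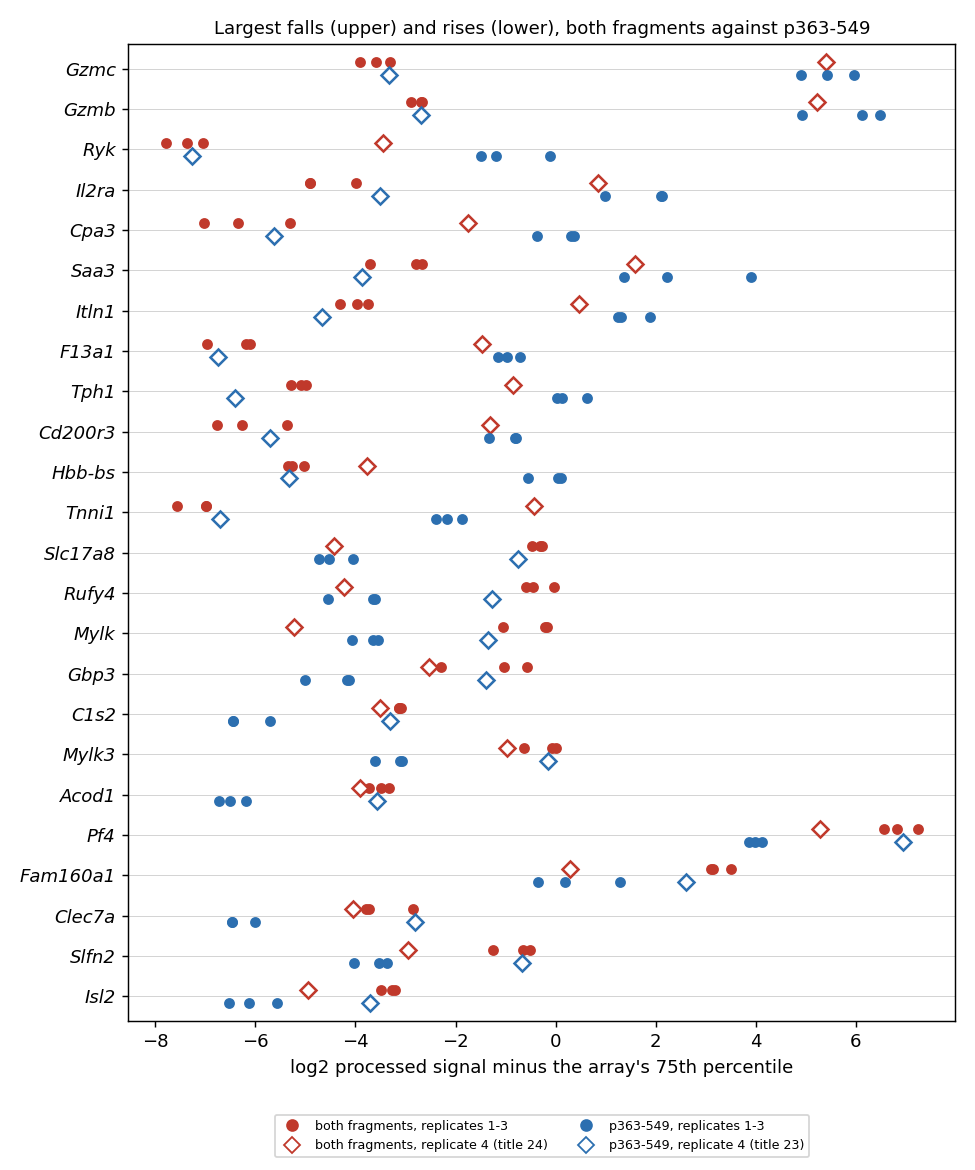
Levels (log2 processed signal minus the array's 75th percentile) on all 8 arrays for the 12 genes with the largest falls and the 12 with the largest rises without the arrays titled 23 and 24; red is both fragments, blue p363-549, and open diamonds are those 2 arrays. For Gzmc the open red diamond sits at 5.40 among the blue points and the open blue diamond at -3.34 among the red ones.

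Of 12 measured mast cell and basophil genes, 0 rose, 8 fell and 4 did not pass without the pair. The median was -3.38, against -1.39 with normexp background correction (6 fell) and -1.34 with all arrays (0 passed). Cpa3, a carboxypeptidase of mast cell granules, had levels of -6.34, -5.31, -7.02 and -1.74 with both fragments, against -0.37, 0.38, 0.30 and -5.63 with p363-549. It was above background on 1 of the first 3 both-fragment arrays and fell by 6.33 ± 0.43 (SE, n = 3 each; limma adjusted p = 8.64e-09), a size that rests on dim signals, since it was -3.13 with normexp. With all arrays it was -3.77 (limma adjusted p = 0.143). The replicate 4 arrays again lay away from their groups, and the difference within slides was -0.71 and -2.12.

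Tph1, which starts serotonin synthesis, fell by 5.38 (-2.95 with normexp, and above background on 1 of the first 3 both-fragment arrays) and Cma1, a mast cell chymase, by 4.22. With all arrays they were at -2.65 and -1.79. Fcer1g, the signalling chain shared by Fc receptors, fell by 4.61, and Fcer1a, the IgE-binding chain, was at least 3.59-fold lower with both fragments above background on 0 of 4 arrays. The serotonin transporter gene Slc6a4 fell by 1.80 and the protease gene Mcpt4 by 2.90. Cd200r3, an activating receptor of basophils and mast cells, was at least 18.8-fold lower, against a log2 difference of -2.03 with normexp. Hdc, which makes histamine, was at 0.35 (limma adjusted p = 0.121) and did not pass. With all arrays Fcer1g was at -1.62, Slc6a4 at -0.93 and Mcpt4 at -1.06. The defining markers Kit and Ms4a2 did not pass the filter on dim probes.

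Summed over the 12 measured genes, in units of each array's 75th percentile, the level ranged over 30.9 to 38.5 on the first 3 both-fragment arrays, against 57.3 to 60.3 on the first 3 p363-549 arrays. The arrays titled 24 and 23 were at 56.5 and 34.6. The sum divided the arrays as Cpa3 did, and its part in the other results was not tested.

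Globin genes, which encode the oxygen carrier of red cells, had 6 of 7 measured members lower and 0 higher without the pair, with a median of -3.53 (-1.91 with all arrays). Hbb-bt, an adult beta globin, had levels of 0.77, 0.51, 0.91 and 1.36 with both fragments, against 4.47, 4.97, 5.16 and 0.29 with p363-549. Only the p363-549 array titled 23 kept the groups from standing apart. Hbb-bt fell by 4.14 ± 0.45 (SE, n = 3 each; limma adjusted p = 4.47e-06), while Hbb-bs fell by 5.09, Hbb-b2 by 4.37, the embryonic gene Hbb-bh1 by 3.53, Hbb-y by 1.66 and the alpha globin gene Hba-a2 by 1.24. With all arrays Hbb-bt was at -2.84, Hbb-bs at -3.43 and Hbb-bh1 at -1.91. Hbb-bs was above background on 1 of the first 3 both-fragment arrays and was at -2.85 with normexp. Hba-a1 was at -1.14 (limma adjusted p = 0.106). Globin copies are near-identical in sequence, so which copy a probe reads is uncertain. Within slides Hbb-bt differed by 0.48 and -3.61, and it was the array titled 23 that gave the first value. The summed globin level was 49.9 to 83.7 on the first 3 both-fragment arrays and 68.6 on the array titled 24, against 139 to 255 on the first 3 p363-549 arrays and 54.0 on the array titled 23.

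Other genes of the red cell and platelet lines went both ways, with 5 of 20 higher and 4 lower. With slide as a fixed block 1 rose and 3 fell, and with normexp 3 rose and 2 fell. Pf4, a chemokine of platelet granules, had levels of 6.83, 6.56, 7.24 and 5.28 with both fragments, against 3.87, 4.13, 3.98 and 6.94 with p363-549. It rose by 2.88 ± 0.53 without the pair (SE, n = 3 each; limma adjusted p = 0.00124) but the call ended with the array titled 23 kept. The platelet genes Treml1, Itgb3 and Gp1ba rose by 2.16, 1.60 and 1.15, and Epor, the erythropoietin receptor, by 0.56. The erythroid regulators Klf1 and Tal1 fell by 1.08 and 0.49. Gata1, the master regulator of both lines, was at -0.38 (limma adjusted p = 0.211). Vwf, a clotting protein, was above background on 1 array of the 8, and it was at least 1.21-fold lower. Its call ended with normexp, at -0.17 (limma adjusted p = 0.916). With all arrays Pf4 was at 1.75, Treml1 at 0.89 and Itgb3 at 0.80. The summed level of these 20 genes was 212 to 303 on the first 3 both-fragment arrays and 141 on the array titled 24, against 130 to 149 on the first 3 p363-549 arrays and 251 on the array titled 23. Pf4 carried that gap: without it the sums were 117 to 151 and 102, against 115 to 134 and 128, and the groups overlapped.

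NF-kB target genes had 13 of 36 measured members higher and 5 lower without the pair, with a median of 0.37. With all arrays 0 passed and the median was 0.19. With slide as a fixed block 5 rose and 3 fell, and with array brightness as a covariate 6 rose and 2 fell. The ligand gene Tnf averaged -0.76 ± 0.58 with both fragments and -1.88 ± 0.31 with p363-549 (SD, n = 3 each), and was at -1.33 and -0.56 on the arrays titled 24 and 23. It rose by 1.12 ± 0.29 (SE; limma adjusted p = 0.0142). Il6, an inflammatory cytokine, averaged 2.05 ± 0.28 with both fragments and 0.26 ± 0.63 with p363-549 (SD, n = 3 each), with 0.86 and 1.66 on the arrays titled 24 and 23. It rose by 1.79 ± 0.30 (SE; limma adjusted p = 0.000564). For both genes the array titled 23 lay above the other p363-549 arrays.

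The chemokine Cxcl10 rose by 1.72, the lymphotoxin gene Lta by 1.53, and Ebi3, a subunit of interleukins 27 and 35, by 1.04. The survival genes Bcl2a1d and Birc3 rose by 1.45 and 0.61, Tnfaip2 by 1.06 and the adhesion receptor Icam1 by 0.87. The other 5 members that passed moved down. Ccr7, a homing receptor, fell by 2.89 (-1.73 with normexp), the chemokines Ccl4 and Ccl5 by 3.53 and 1.27, and the early response gene Ier3 by 0.77. The last of the 5, Ccl3, was above background on 0 of the 8 arrays, so no size is given for it. With all arrays Ccr7 was at -1.57, Ccl4 at -1.88, Cxcl10 at 1.11, Lta at 0.76, Bcl2a1d at 1.18 and Tnf at 0.65. Nfkbia, the inhibitor IkB-alpha, was at 0.53 (limma adjusted p = 0.264), and Tnfaip3, the feedback enzyme A20, at 0.58 (limma adjusted p = 0.164). Neither feedback gene passed.

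**Figure D3:**
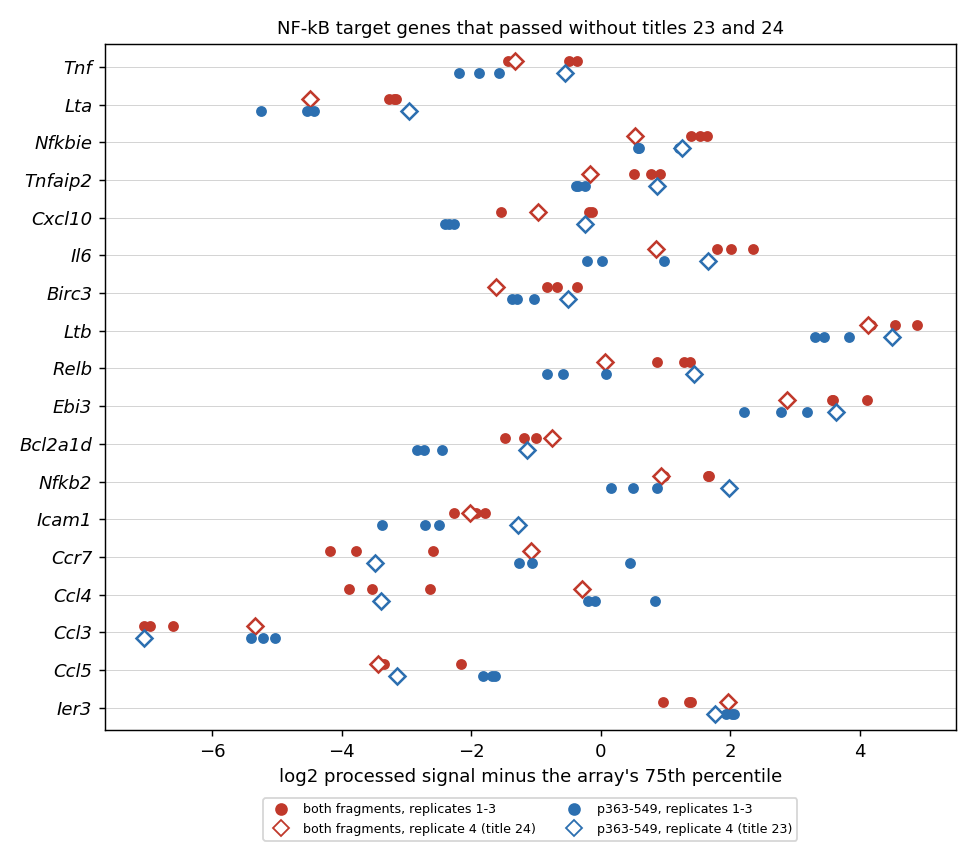
Levels (log2 processed signal minus the array's 75th percentile) on all 8 arrays for the 13 NF-kB target genes that rose and the 5 that fell without the arrays titled 23 and 24; red is both fragments, blue p363-549, and open diamonds are those 2 arrays. The first 13 rows have filled red points to the right of the filled blue points, and the last 5 rows to the left.

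Among 27 measured NF-kB subunits, inhibitors and kinases, 5 rose and 0 fell, with a median of 0.11. The 5 are 18.5% of the list, near the 14.6% called among all tested genes. With normexp or slide as a block 2 rose, and with the brightness covariate 3. Relb, a subunit of the non-canonical pathway, had levels of 1.29, 1.37, 0.87 and 0.06 with both fragments, against -0.59, -0.84, 0.09 and 1.44 with p363-549. The first 3 arrays stood apart and those of replicate 4 lay in the reverse order. Relb rose by 1.62 ± 0.23 (SE, n = 3 each; limma adjusted p = 0.000107), by 1.73 on a further probe and by 0.02 on its last probe, which did not pass (limma adjusted p = 0.986). Nfkb2, its partner subunit, rose by 0.93, the inhibitor Nfkbie by 0.73, the adaptor kinase Ripk1 by 0.81, and Birc3 counts here as well. With all arrays Relb was at 0.87, Nfkb2 at 0.44 and Nfkbie at 0.37. The subunit Nfkb1 was at 0.04 (limma adjusted p = 0.923). The calls of Relb, Nfkb2 and Nfkbie ended with the array titled 23 kept. The Nfkb2 call ended also in a fit of only the arrays compared and with the brightness covariate, and the Nfkbie call with normexp, with slide as a block, with only the arrays compared and with the array titled 24 kept.

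The promoters of 6 NF-kB targets that rose are shown because a kappaB match lies in them. A promoter is the RefSeq sequence (GRCm38.p6) of 250 bases before to 50 bases after a gene's start, and both strands were searched for the kappaB consensus. It was present in 5.14% of 27025 genes with a promoter in the table and 6.07% of the 9653 tested genes with one. The share was 8.94% for genes that rose and 7.09% for genes that fell. It was 6 of 12 among the NF-kB targets that rose and 1 of 2 among those that fell (Ier3), against 13 of 27 among all measured NF-kB targets. The share in targets that rose was thus near that of all measured targets. A match is a description of the letters, and binding was not measured. The windows of 30 bases, with the match in capitals, are at chr5:92348973-92349002 (minus strand) for Cxcl10, chr5:30013060-30013089 for Il6, chr19:46304688-46304717 for Nfkb2, chr17:35194410-35194439 for Ltb, chr17:45555584-45555613 for Nfkbie and chr17:55952569-55952598 for Ebi3, the last 5 on the plus strand.
Cxcl10: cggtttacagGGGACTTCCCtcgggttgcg
Il6: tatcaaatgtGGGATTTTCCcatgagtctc
Nfkb2: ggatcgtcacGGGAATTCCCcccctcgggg
Ltb: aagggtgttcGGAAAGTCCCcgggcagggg
Nfkbie: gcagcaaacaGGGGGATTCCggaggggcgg
Ebi3: gccccttcctGGGGCTTCCCcgttggccat

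Ligands of the TNF family had 4 of 8 measured members higher and 1 lower, with a median of 1.01 (0.62 with all arrays). With slide as a block 1 rose and 0 fell, and with the brightness covariate 1 rose and 1 fell. Tnf and Lta are 2 of the 4. Ltb, the lymphotoxin chain that anchors the complex to the membrane, was at 4.55, 4.88, 4.17 and 4.12 with both fragments, against 3.31, 3.45, 3.83 and 4.50 with p363-549. It rose by 1.00, and Tnfsf13b, the B cell survival factor BAFF, rose by 1.41. Tnfsf14, also called LIGHT, was at 2.50, 2.37, 2.45 and 2.77 with both fragments, against 3.81, 3.58, 3.20 and 2.87 with p363-549, and fell by 1.09. Its 4 both-fragment arrays all lay below the 4 p363-549 arrays, and 3.06% of all tested genes likewise had groups that did not overlap. Tnfsf14 did not pass with all 8 (-0.85 ± 0.20; SE, n = 4 each; limma adjusted p = 0.143). The Ltb call ended with slide as a block, with only the arrays compared, with the brightness covariate, with the array titled 23 kept and without both fragments replicate 2.

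Among 18 measured chemokines and cytokines 4 rose and 8 fell, with a median of -1.004 (-0.63 with all arrays, and -0.24 after normexp background correction, with 1 higher and 4 lower). The 8 include Ccl3, which was below background. Beside the chemokines named above, Osm, a cytokine of the interleukin-6 family, fell by 3.03 ± 0.36 (SE, n = 3 each; limma adjusted p = 1.11e-05). Spp1, the matrix protein osteopontin, fell by 2.61, the growth factor Csf1 by 2.22, Lif by 2.18 and the chemokine Ccl17 by 1.53. With all arrays Osm was at -2.10, Spp1 at -1.46, Csf1 at -1.35 and Lif at -1.46, and with normexp Csf1 was at -1.17 and Ccl17 at -0.61. Il23a, a subunit of interleukin 23, was at least 1.57-fold higher, with p363-549 above background on 0 of 4 arrays. Ccl17 was at -4.00, -3.54, -3.92 and -3.38 with both fragments, against -2.32, -2.38, -2.17 and -3.30 with p363-549. With all 8 arrays its groups did not overlap, by a narrow gap between the replicate 4 arrays (-3.38 against -3.30). That was so for 3.06% of all tested genes, so it is no support for a difference. The difference with all 8 was -1.17 ± 0.21 (SE, n = 4 each; limma adjusted p = 0.143).

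Interferon-stimulated genes had 15 of 32 measured members higher and 2 lower, with a median of 0.59 (0.34 with all arrays). With slide as a fixed block, or with the brightness covariate, 7 rose and 2 fell. Gbp3, a guanylate-binding protein, had levels of -1.03, -0.57, -2.28 and -2.54 with both fragments, against -4.13, -4.18, -5.00 and -1.38 with p363-549. All both-fragment arrays lay above the first 3 p363-549 arrays, and Gbp3 rose by 3.14 ± 0.43 (SE, n = 3 each; limma adjusted p = 6.6e-05). Within slides its difference was 0.35 and 1.64, and it was 2.07 with all arrays and 1.85 with normexp.

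The antiviral genes Oas2, Mx2, Isg15 and Oasl1 rose by 2.36, 2.16, 1.84 and 1.72, and Irf7, a regulator of interferon genes, by 2.04. Oas1a rose by 1.25, the RNA sensor gene Ddx58 by 1.17, Mx1 by 1.07 and Irf9, part of the interferon-responsive factor ISGF3, by 0.81. With all arrays Oas2 was at 1.53, Mx2 at 1.29, Irf7 at 1.13 and Isg15 at 1.06. Guanylate-binding proteins did not move as a family, because Gbp9 fell by 3.00 and Gbp4 at least 8.52-fold while Gbp3 and Gbp7 rose. The Gbp4 call ended with normexp, at -1.32 (limma adjusted p = 0.0779). Gbp9 was at -4.00, -4.72, -3.85 and -2.52 with both fragments, against -1.70, -1.33, -0.52 and -3.75 with p363-549, with replicate 4 again in the reverse order, and its difference was -1.95 with all arrays and -1.54 with normexp.

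Survival and growth signalling genes included 1 large fall. Bcl2, the founding survival gene of its family, had levels of -0.43, -0.73, -0.42 and 2.33 with both fragments, against 4.25, 4.09, 4.87 and -0.76 with p363-549. The array titled 24 was about midway, and the array titled 23 was below all others of both groups. Bcl2 fell by 4.93 ± 0.25, a 30.5-fold difference (SE, n = 3 each; limma adjusted p = 2.25e-10), and was at -2.92 ± 0.82 with all arrays (SE, n = 4 each; limma adjusted p = 0.143). Within slides the difference was 0.33 and -1.75. Of 24 measured Bcl2 family and caspase genes, Bcl2 was the 1 that fell and Bcl2a1d the 1 that rose (8.33%, under the 14.6% called among all tested genes).

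BCR-ABL and STAT5 response genes had 6 of 24 measured members lower and 0 higher, with a median of -0.34 (-0.27 with all arrays). The cytokine signalling inhibitors Cish, Socs1 and Socs3 fell by 2.35, 2.06 and 1.60, the inhibitor of differentiation Id1 by 1.07 and Stat5b by 0.64, and Osm is on this list too. Socs3 was at -0.27, -0.39, -0.19 and 0.31 with both fragments, against 1.17, 1.27, 1.52 and 0.15 with p363-549, so only replicate 4 overlapped. Abl1 and Bcr, whose genes form the fusion oncogene, were at 0.51 and -0.03 (limma adjusted p = 0.112 and 0.937). With all arrays Cish was at -1.71, Socs1 at -1.57, Socs3 at -1.16 and Id1 at -0.65. Receptor chains for cytokines had 2 of 13 higher and 3 lower. Csf2rb and Csf2rb2, beta chains of interleukin 3 receptors, fell by 0.98 and 0.90, and Il2rg, the common gamma chain, rose by 1.49. With all arrays Csf2rb was at -0.58 and Il2rg at 0.97. The Il2rg call ended with slide as a block, with the brightness covariate and with the array titled 23 kept. The Csf2rb call ended with only the arrays compared and with the array titled 23 kept. With slide as a block 0 receptor chains rose and 3 fell.

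Genes of myeloid and progenitor transcription factors had 7 of 22 lower and 1 higher, with a median of -0.62 (-0.35 with all arrays). With the brightness covariate 2 were lower and 1 higher, with normexp 3 and 1, and with slide as a block 3 and 0. Cebpb, a myeloid regulator, fell by 1.25, the inhibitor of differentiation Id2 by 1.84, Runx3 by 0.92 and Runx1 by 0.79, while Lmo2 rose by 0.84. Spi1, the regulator PU.1, was at -0.72 (limma adjusted p = 0.0537). Of 14 monocyte and macrophage genes 3 rose and 2 fell. Acod1, which makes itaconate, and Clec7a, a receptor for fungal glucans, were at least 2.19-fold and 2.27-fold higher, and Tlr2 rose by 0.99. Adgre1, the macrophage marker F4/80, was at least 20.8-fold lower (a log2 difference of -2.10 with normexp) and Lyz1 fell by 0.97. The neutrophil genes were split, with the chemokine receptor Cxcr2 higher by 2.57 and Padi4 at least 13.5-fold lower. With normexp they were at 2.10 and -1.89. Acod1 and Clec7a lost their call after normexp correction and with the array titled 23 kept, and Acod1 also with slide as a block.

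Of 9 measured T and NK cell genes 1 rose, 3 fell and 5 did not pass, with a median of -0.06. Their summed level, Gzmb included, was 5.20 to 9.60 on the first 3 both-fragment arrays and 47.2 on the array titled 24, against 38.6 to 97.4 on the first 3 p363-549 arrays and 8.62 on the array titled 23. Gzmb carried that gap: without it the sums were 5.04 to 9.44 and 9.66, against 8.16 to 9.70 and 8.46, and the groups overlapped. Of the T cell receptor genes, Cd3g was at least 4.92-fold lower and Cd3d fell by 1.25, while Cd3e was at -0.06 (limma adjusted p = 0.941) and Lck at 0.09 (limma adjusted p = 0.904). The Cd3g call ended with normexp, at -0.86 (limma adjusted p = 0.364). The B cell genes had 2 of 3 measured higher, Cd79b and Vpreb1, by 0.70 and 0.68, and the defining markers Cd79a and Pax5 did not pass the filter on dim probes. Of the 3, 0 passed with normexp, slide as a block or the brightness covariate, and 1 with quantile normalization. Of the stromal, endothelial and epithelial genes 3 of 17 were measured and 0 passed, and Col1a1 and Epcam did not pass the filter. The part of such cells in the results was not tested.

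**Figure D4:**
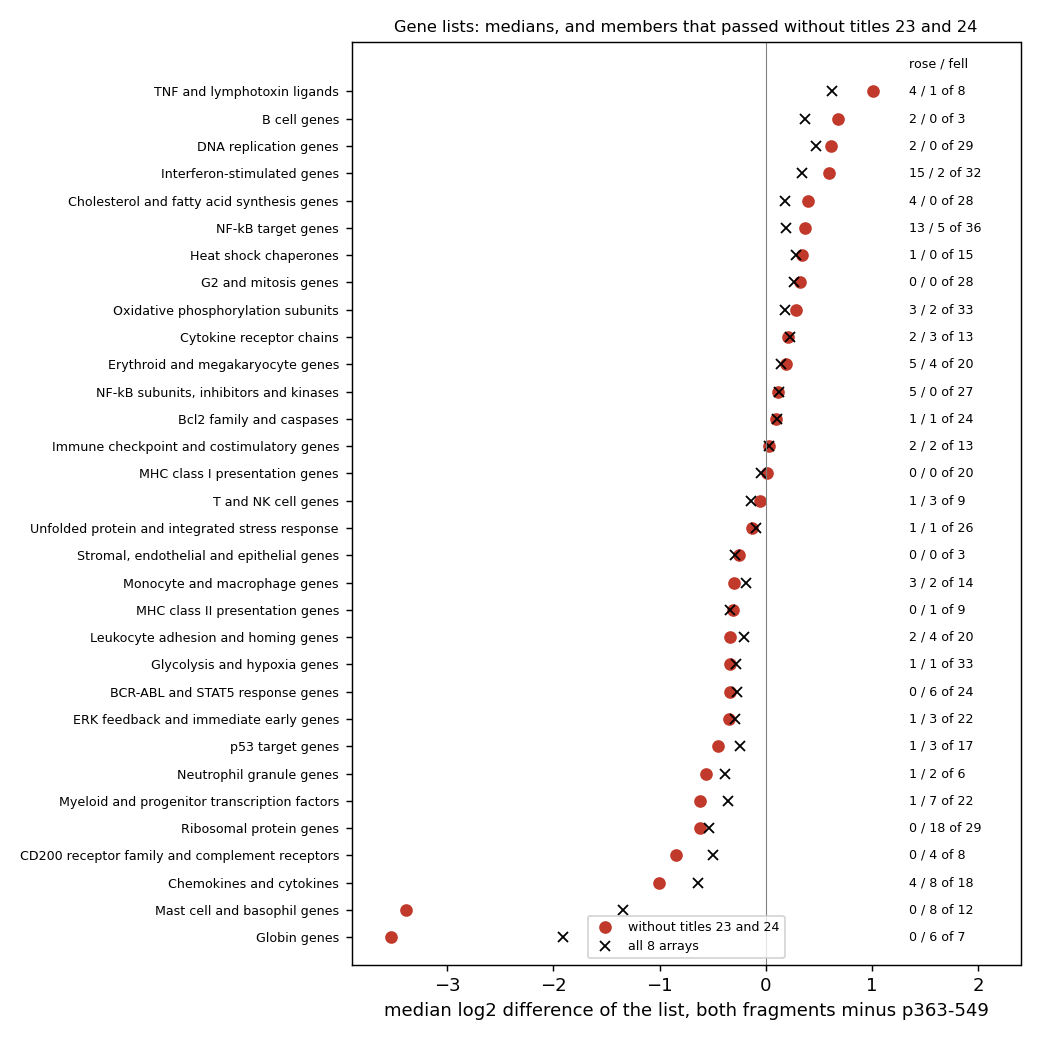
Median log2 difference (both fragments minus p363-549) of each of 32 gene lists, as red points without the arrays titled 23 and 24 and crosses with all 8 arrays; the numbers give the members that rose, that fell and that were measured. Globin and mast cell genes have the lowest medians, at -3.53 and -3.38, and TNF family ligands the highest, at 1.01.

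Of 29 measured ribosomal protein genes 18 fell and 0 rose, with a median of -0.62 (-0.53 with all arrays), and 0 of the 29 had a positive difference. Rpl19 was at 7.55, 7.34, 7.64 and 7.69 with both fragments, against 8.24, 8.11, 8.58 and 7.79 with p363-549, and it fell by 0.80. This result depended on the scaling: after quantile normalization the median was -0.04 and 1 gene fell. With the brightness covariate the median was -0.14 and 0 passed, and with slide as a block 0 passed while the median stayed at -0.62. DNA replication genes had 2 of 29 higher, Rrm2 and Tyms (6.90%, under the 14.6% called among all tested genes). Their median of 0.61 turned to -0.36 with the brightness covariate. With normexp, slide as a block or that covariate 0 of the 29 passed. Cholesterol and fatty acid synthesis genes had 4 of 28 higher (14.3%, near the 14.6% called among all tested genes) and 0 lower, and 1 higher with slide as a block or with normexp. Idi1, an isomerase of that pathway, was at 4.35, 4.35, 3.95 and 1.99 with both fragments, against 2.18, 2.32, 2.95 and 3.62 with p363-549, and rose by 1.73.

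Glycolysis and hypoxia genes had 1 higher, Hif1a (0.74), and 1 lower, Pfkfb3, of 33 (6.06%, under the 14.6% called among all tested genes). Their median of -0.34 turned to 0.55 with the brightness covariate and to 0.00 after quantile normalization. The other Hif1a probe was at 0.17 (limma adjusted p = 0.839). Stress genes had few calls: Stip1 rose by 0.89 among 15 heat shock chaperones, and Nupr1, a stress-induced regulator, fell by 2.93 while Creld2 rose by 0.57 among 26 genes of the unfolded protein response. Of 17 p53 targets, with a median of -0.45 (-0.24 with all arrays), Btg2 fell by 2.34, Zmat3 by 0.82 and Cdkn1a, the cell cycle inhibitor p21, by 0.82, and Tnfrsf10b rose by 0.59. Of 20 measured MHC class I genes 0 passed, as did 0 of 28 G2 and mitosis genes. Of 13 immune checkpoint and costimulatory genes 2 rose and 2 fell, with a median of 0.03. Icosl, the ligand of the costimulator ICOS, fell by 1.09, Tnfrsf4, the costimulator OX40, by 0.95, and the checkpoint receptor gene Havcr2 rose by 0.38. The Havcr2 call was kept in only 8 of 24 alternatives, and the Icosl call in 16. Pdcd1lg2, a ligand of the receptor PD-1, rose by 2.10 (1.39 with all arrays), with levels of 2.67, 2.91, 1.59 and 1.24 with both fragments, against 0.30, 0.42, 0.15 and 1.97 with p363-549.

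The 3 largest rises were in genes on no list. The first, Slc17a8, a vesicular glutamate transporter, had levels of -0.31, -0.27, -0.47 and -4.43 with both fragments, against -4.52, -4.06, -4.72 and -0.76 with p363-549. The replicate 4 arrays exchanged places, and the gene rose by 4.08 ± 0.31 (SE, n = 3 each; limma adjusted p = 3.89e-08), against 2.14 ± 0.78 with all arrays (SE, n = 4 each; limma adjusted p = 0.165). With normexp it was 2.56. Rufy4, which takes part in autophagy, rose by 3.58 (1.94 with all arrays, 2.39 with normexp). The myosin light chain kinase genes Mylk and Mylk3 rose by 3.28 and 3.03 (1.49 and 2.06 with all arrays), although the other Mylk probe was at -0.44 (limma adjusted p = 0.35). The complement protease gene C1s2 was at least 2.89-fold higher, Fam160a1 rose by 2.88, the Schlafen gene Slfn2 by 2.85 and the homeobox gene Isl2 at least 2.49-fold. C1s2 and Isl2 lost their calls with normexp, at 1.09 and 0.98 (limma adjusted p = 0.0872 and 0.196).

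Whether the N-terminal part went with the same change when the C-terminal part was absent was tested by the difference between 2 differences: both fragments minus p363-549, less p1-361 minus VOID. With all arrays 32 genes passed (0.213% of those tested), with 0 of the 90 named genes among them (smallest adjusted p 0.0722, Isl2). Without the pair 1249 genes passed (8.33%), 62 of the named genes included. The named genes other than Rela were chosen for their difference between both fragments and p363-549 on the same arrays. That difference is part of this test, so the 62 and the examples below are no separate evidence. Gzmc was at -9.04 in the first difference and 2.30 in the second, so that they differed by -11.3 (limma adjusted p = 5.28e-10). For Bcl2 the differences were -4.93 and -0.26 (limma adjusted p = 8.26e-08) and for Slc17a8 4.08 and -0.13 (limma adjusted p = 2.84e-06). For Pf4 they were 2.88 and 2.15, which did not pass (limma adjusted p = 0.533). A miss of the test does not show that the differences are equal.

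**Figure D5:**
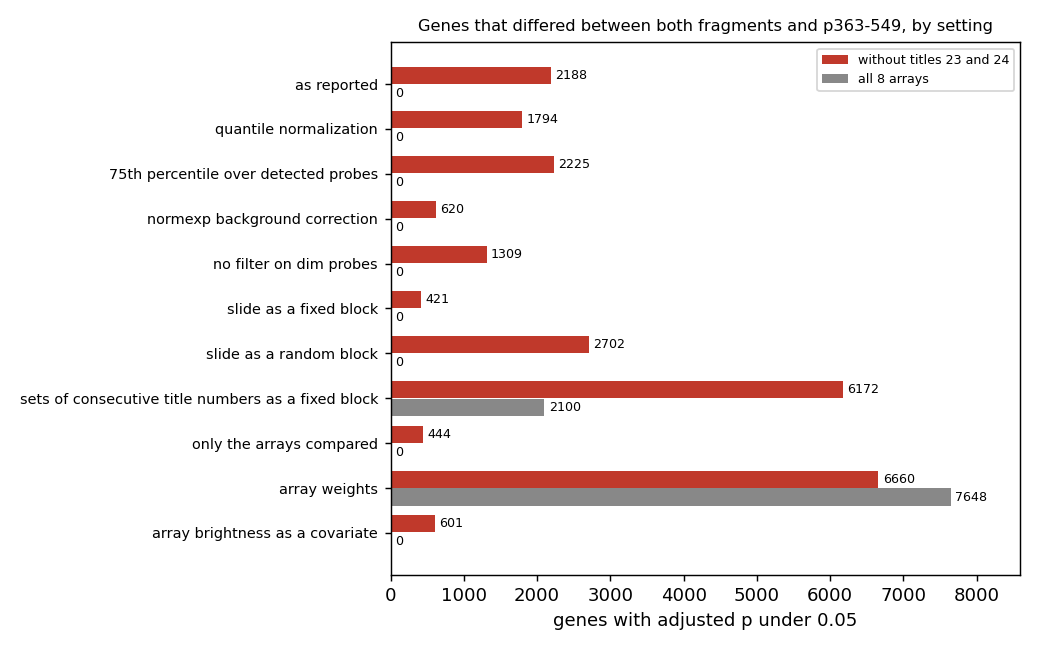
Number of genes with an adjusted p under 0.05 between both fragments and p363-549 (bars from 0) under 11 settings, in red without the arrays titled 23 and 24 and in grey with all 8 arrays. With all arrays the number is 0 except with the sets of title numbers as a block (2100) and with array weights (7648), and without the pair it runs from 421 to 6660.

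The count of 2188 depended on single arrays. It was 943, 845 and 3704 without replicates 1, 2 and 3 of both fragments, and 1336, 1886 and 1117 without replicates 1, 2 and 3 of p363-549. It was 465 with the array titled 23 kept and 1655 with the array titled 24 kept. With array brightness as a covariate it was 601, of which 500 were among the 2188, and the part of brightness in the differences was not tested further. With all 8 arrays and the 4 sets as a block 2100 genes passed, of which 1144 were among the 2188, all in the same direction. Both fits use replicates 1 to 3 of each group, so that shared direction is no separate evidence.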

How the data were processed

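RNA of 24 DA1-3B samples was hybridised to 1-colour Agilent arrays, 4 on each of 6 slides. Scans were quantified by the authors in Agilent Feature Extraction 10.7.3.1 with mm9 probe annotation, per the file headers. The deposited intensity is the linear processed signal after background subtraction and detrending, with no scaling from array to array. Intensity in the deposited table of the whole series was identical (largest difference 0). Of 44397 spots, 43020 were not controls, with 39429 distinct probes. On the 8 arrays compared, 188 to 312 spots marked as uneven were left out. RefSeq accessions named 27508 probes and synonyms renamed 404, and other names are those of the files.

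The measure was log2 intensity minus each array's 75th percentile. A probe was kept if some group had it well above background on its 4 arrays (19523 probes), and the brightest such probe on average was used per gene (14993 genes). In limma 3.58.1 under R 4.3.3 (statmod 1.5.0), 1 mean per group was fitted to 24 arrays (18 residual degrees of freedom, 3.06 prior) or to all but titles 23 and 24 (16 residual, 2.97 prior). Tests were 2-sided. Replicates are numbered in sample order.

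Simulated data with known changes were used to test the script. The comparison, the gene lists and the rule for named genes were chosen with earlier results of these data known. The rule took Rela, the 12 largest rises and 12 largest falls among genes that passed (without the pair, those whose 3 and 3 arrays did not overlap) with the higher group well above background on all its arrays, and, from each list, at most 3 members that passed, by smallest p; list members named beyond it were chosen after their values were seen. The alternatives were other background correction (normexp, offset 50), normalization, filters, probes, blocks, priors and arrays left out; array brightness as a covariate and keeping only 1 of the 2 arrays were added after the data were seen.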

Additional observations from a re-analysis of the deposited data

Results flagged for a closer look

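Among the 90 named genes, each with both groups of 4 arrays, 49 of 180 groups held 1 array far from the other 3, with a gap to its nearest neighbour above Dixon's critical value as a share of the group's range. Chance alone marks about 1 in 20 groups, and these genes were chosen with the arrays titled 23 and 24 left out, so those arrays were free to lie apart. The outlying array was p363-549 replicate 4 (title 23) in 28 groups, both fragments replicate 4 (title 24) in 20 and both fragments replicate 3 in 1, where Stip1 was low at 3.12.

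Both fragments replicate 4 was high at 5.40 for Gzmc, 5.23 for Gzmb, 0.84 for Il2ra, 0.47 for Itln1, -1.47 for F13a1, -0.85 for Tph1, -0.43 for Tnni1 and -1.72 for Adgre1. It was also high at 4.18 for Cebpe, 1.55 for Cd3d, 3.56 for Id1, 2.33 for Bcl2 and 2.22 for Itga4. It was low at -4.43 for Slc17a8, -4.24 for Rufy4, -3.51 for C1s2, 0.30 for Fam160a1, -4.94 for Isl2, -2.62 for Cxcr2 and 1.99 for Idi1. In each of these 20 groups the array lay on the side of the p363-549 mean.

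The p363-549 replicate 4 array was low at -3.34 for Gzmc, -2.70 for Gzmb, -5.63 for Cpa3, -4.66 for Itln1, -6.74 for F13a1, -6.41 for Tph1, -5.71 for Cd200r3, -5.32 for Hbb-bs and -6.71 for Tnni1. It was also low at -1.16 for Hbb-b2, 0.29 for Hbb-bt, -4.95 for Adgre1, -6.77 for Padi4, -6.85 for Cd3g, 0.69 for Cd3d, -1.77 for Osm, -0.76 for Bcl2, -5.58 for Gbp4, 0.67 for Itga4 and -4.09 for Nupr1. It was high at -0.76 for Slc17a8, -0.15 for Mylk3, -3.58 for Acod1, 6.94 for Pf4, -2.81 for Clec7a, 0.87 for Tnfaip2, 1.48 for Il2rg and 1.97 for Pdcd1lg2. In each of these 28 groups the array lay on the side of the both-fragment mean, and why it did so was not tested.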

How the results depend on the processing

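With all 8 arrays the count of genes that passed was 0, and it stayed 0 in the alternatives not named here. It was 2100 with the sets of title numbers as a fixed block, 7648 with array weights, 2188 without titles 23 and 24, 2287 also without title 22 (p1-361 replicate 4), and 0 to 1655 with 1 array left out (465 without both fragments replicate 4, 1655 without p363-549 replicate 4). Without titles 23 and 24 the count of 2188 became 620 with normexp, 1309 with no filter on dim probes (which moved the median of all genes to -0.34), 6172 with the sets as a fixed block, 421 with slide as one, 444 with only the arrays compared, 6660 with array weights, 601 with array brightness as a covariate and 465 with title 23 kept; with 1 array left out it ran from 845 to 3704. Quantile normalization gave 1794, with 838 higher and 956 lower. The additivity count of 32 became 1249 without the pair and 3 with normexp. The cause of these changes was not tested.

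The 90 named genes had 2136 values under alternatives without the pair, of which 1903 stayed on the same side of the threshold, 232 lost the call and 1 turned its sign: Ctss, below background on all 8 arrays, at 0.00103 with normexp. The correlation of arrays on 1 slide was -0.0647 with all arrays and -0.125 without the pair. The labels give no replicate numbers and do not say that the sets of title numbers pair the samples, so the fits with the sets as a block are given as alternatives only. Signal over background limits the bounds given as at least N-fold. They hold for the main scaling only, and normexp gave differences smaller than these bounds for the named genes so described.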
